A study of Mus musculus with 4 samples.

Results

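The genes described here are 37 genes of the integrated stress response and the unfolded protein response, chosen by symbol from the 19645 features that the files list, and all 37 were found and measured. RNA was sequenced after depletion of ribosomal RNA from undifferentiated mouse embryonic stem cells (ESCs), with 2 libraries for WT and 2 for *Bmal1* KO. The KO line was made with CRISPR-Cas9 directed at *Bmal1* (*Arntl*), the gene for a core clock transcription factor, and is a single picked clone that had been selected with puromycin. Both genotypes were kept undifferentiated in serum-containing medium with LIF on gelatin. Whether the WT cells went through transfection and selection is not given in the sources used here, so a difference between genotypes and a difference between the clone and its parent culture cannot be told apart. The replicates are called biological, but nothing says that they came from separate cultures, so the p-values measure only the spread between these libraries, which may be technical. The kinase gene *Eif2ak3*, which encodes the endoplasmic reticulum (ER) sensor PERK, was left out of the 37 because it lies in a stretch of chromosome 6 that was raised in KO.

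Cells meet stress in the ER or a shortage of amino acids with linked programmes. In the integrated stress response, kinases phosphorylate the translation initiation factor eIF2α. General translation is then reduced while the mRNA of the transcription factor ATF4 is translated more, and ATF4 induces genes for amino acid supply and redox balance. In the unfolded protein response, the ER sensors IRE1α, ATF6 and PERK react to misfolded proteins. IRE1α splices *Xbp1* mRNA, ATF6 is cut to release a transcription factor, and both routes induce ER chaperones and the machinery of ER-associated degradation. ESCs grow fast and synthesise much protein. Phosphorylation, translation, splicing and cleavage are not read by gene-level RNA values, so what follows concerns mRNA levels.

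In *Bmal1* KO ESCs the mRNA levels of these genes differed little from WT. Of the 37 genes, 2 passed the test, both lower in KO: *Chac1*, an ATF4 target, and *Pdia6*, an ER disulfide isomerase. None passed in the other direction, and no member changed more than 2-fold. The test was limma on log2(FPKM + 0.1) with Benjamini-Hochberg adjustment over the 12990 features whose mean reached 0.5 FPKM, and a gene passed at an adjusted p under 0.05. FPKM are fragment numbers divided by transcript length and by the library's mapped total, so levels can be compared between genes. Members that passed made up 5.41% of the list, against 12.5% of all tested features. Over all features 6.85% were higher and 5.6% lower in KO, so the members' share on the lower side was near the background, and 4.14% of features passed with a change of more than 2-fold. Of the 6145 features that averaged 10 FPKM or more, 11.7% passed, 5.6% higher and 6.09% lower. In bulk RNA, fewer cells that express a gene and less RNA per cell cannot be told apart.

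RefSeq promoter windows of build GRCm38.p6 were matched to 33 of the 37 members, and the sequences show which genes carry the ATF4 element and which the ATF6 element. A window covers 250 bases before and 50 bases after an annotated start, and 36 windows were searched on both strands. The ER stress response element, CCAAT followed after 9 free bases by CCACG, stood in 0.119% of 32851 promoter windows of the genome. It stood in 7 of 12 windowed genes of ER chaperones and folding, and in 1 of 4 genes of ER-associated degradation. The C/EBP-ATF response element, searched as TGATGNAA, was present in 3.97% of all windows and in 4 of the 6 ATF4 target genes. The second form of the ER element, ATTGG followed after 1 free base by CCACG, shares the letters CCACG with the first, but no member window held both. It was found in *Dnajb11* and *Herpud1*, against 0.0365% of windows. The XBP1-type element TGACGTGG, which ends in the reverse complement of CCACG, was found in no member window (0.676% of all windows). The E-box CACGTG, the letters bound by BMAL1 with its partner CLOCK, was found in *Calr* and *Dnajb9* only among the members, against 7.15% of all windows. A match of letters is a description and not evidence of binding. No window was given for *Atf6*, *Ppp1r15b*, *Hyou1* and *Manf*.
The following stretches, read 5′ to 3′ on the strand of the gene, show the C/EBP-ATF element in capitals with the bases around it, upstream of the start:
Asns (minus strand, chr6:7693210-7693252): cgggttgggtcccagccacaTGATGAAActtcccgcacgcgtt
Chac1 (plus strand, chr2:119351029-119351076): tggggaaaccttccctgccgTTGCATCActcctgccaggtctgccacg
Vldlr (plus strand, chr19:27216800-27216847): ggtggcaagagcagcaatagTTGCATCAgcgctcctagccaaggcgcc
Herpud1 (plus strand, chr8:94386297-94386344): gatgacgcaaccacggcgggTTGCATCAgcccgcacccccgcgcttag
In *Trib3* the element lies after the annotated start and is not printed. The next stretches show the ER stress response element in capitals, in either orientation:
Hspa5 (plus strand, chr2:34772005-34772063): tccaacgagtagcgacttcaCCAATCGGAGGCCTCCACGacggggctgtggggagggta
Pdia6 (plus strand, chr12:17266471-17266529): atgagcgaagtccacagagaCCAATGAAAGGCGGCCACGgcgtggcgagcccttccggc
Hsp90b1 (minus strand, chr10:86705513-86705571): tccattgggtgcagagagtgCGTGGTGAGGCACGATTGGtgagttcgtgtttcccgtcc
Calr (minus strand, chr8:84847055-84847113): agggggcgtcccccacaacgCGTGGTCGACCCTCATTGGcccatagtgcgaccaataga
Canx (minus strand, chr11:50325780-50325838): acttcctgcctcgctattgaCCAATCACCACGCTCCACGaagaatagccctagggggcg
Creld2 (plus strand, chr15:88819500-88819558): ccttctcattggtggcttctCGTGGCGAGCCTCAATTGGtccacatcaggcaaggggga
Dnajc3 (plus strand, chr14:118937807-118937865): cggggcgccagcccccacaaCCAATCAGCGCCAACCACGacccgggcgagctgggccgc
Syvn1 (plus strand, chr19:6046512-6046570): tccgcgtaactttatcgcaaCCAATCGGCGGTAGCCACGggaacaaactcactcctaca

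The libraries were first checked for the targeted gene and for cell identity. *Arntl* had 6.05 and 6.29 FPKM in the WT libraries and 5.95 and 5.92 FPKM in the KO libraries, so the RNA level does not mark the genotype (adjusted p = 0.750 from limma). In the paper the KO line was identified by Sanger sequencing, and BMAL1 protein was absent on a Western blot. All 8 ESC markers were expressed, from a mean of 48.9 to 2963 FPKM. Of them 2 (25.0%), *Klf4* and *Tdgf1*, were lower in KO by the test, against 5.6% of all tested features. The log2 fold change was below 0 in 7 of the 8 (87.5%, median -0.20), against 53.2% of all tested features. In 5 of the 8 (62.5%), including *Nanog* (-0.18), *Sox2* (-0.26) and *Zfp42* (-0.21), both KO libraries lay below both WT libraries, against 31.7% of features. These markers thus moved by as much as many of the stress genes described below. Their part in those differences was not tested. The 6 listed fibroblast markers summed to 1.67 to 2.82 FPKM in WT and 2.26 to 3.31 FPKM in KO, most of it *Thy1*. *Thy1*, the only marker of this list that was tested, had 1.69 and 1.54 FPKM in WT and 2.73 and 2.11 FPKM in KO. Both KO libraries of *Thy1* lay above both WT libraries, but it did not pass (log2 fold change 0.55, adjusted p = 0.120 from limma). The other fibroblast markers overlapped between the genotypes, and *Col3a1* was listed at 0 in 3 libraries. The 8 primitive endoderm markers summed to 9.76 to 10.5 FPKM in WT and 9.20 to 9.44 FPKM in KO, nearly all of it *Lama1* (9.32 and 8.50 FPKM in WT, 7.24 and 7.60 FPKM in KO). In 4 others, all below 1 FPKM and not tested, every KO value exceeded the WT values: *Sox7* had 0.260 and 0.247 FPKM in WT and 0.709 and 0.627 FPKM in KO, *Dab2* had 0.0993 and 0.136 FPKM in WT and 0.327 and 0.343 FPKM in KO, and *Foxa2* and *Pdgfra* had at most 0.206 FPKM. *Gata4* went the other way, with 0.600 and 0.561 FPKM in WT and 0.528 and 0.445 FPKM in KO (log2 fold change -0.22, adjusted p = 0.653 from limma). *Gata6* and *Sox17* overlapped between the genotypes. Read numbers cannot be recovered from FPKM, and sequencing depth is therefore unknown. Features without a gene symbol took 26.8% and 37.3% of the summed FPKM in WT and 19.0% and 18.1% in KO. Their part in the small differences given here was not tested beyond the rescaling described at the end of the section.

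Levels within the pathway spanned a wide range, shown in the plot of all members by library. *Calr*, the ER lectin chaperone calreticulin, was the most abundant mRNA with 492 and 467 FPKM in WT and 485 and 459 FPKM in KO. *Vldlr*, a lipoprotein receptor gene induced by ATF4, was the least abundant with 0.609 and 0.726 FPKM in WT and 0.918 and 1.16 FPKM in KO. The median of the members' mean levels was 30.8 FPKM, and 24 of 37 had a mean of at least 10 FPKM. For 10 members the files give coordinates that overlap another gene (*Eif2ak1*, *Ppp1r15a*, *Ddit3*, *Atf5*, *Xbp1*, *Hsp90b1*, *Pdia6*, *Dnajb11*, *Manf* and *Syvn1*), so the share of reads between the neighbours is uncertain there.

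**Figure D1:**
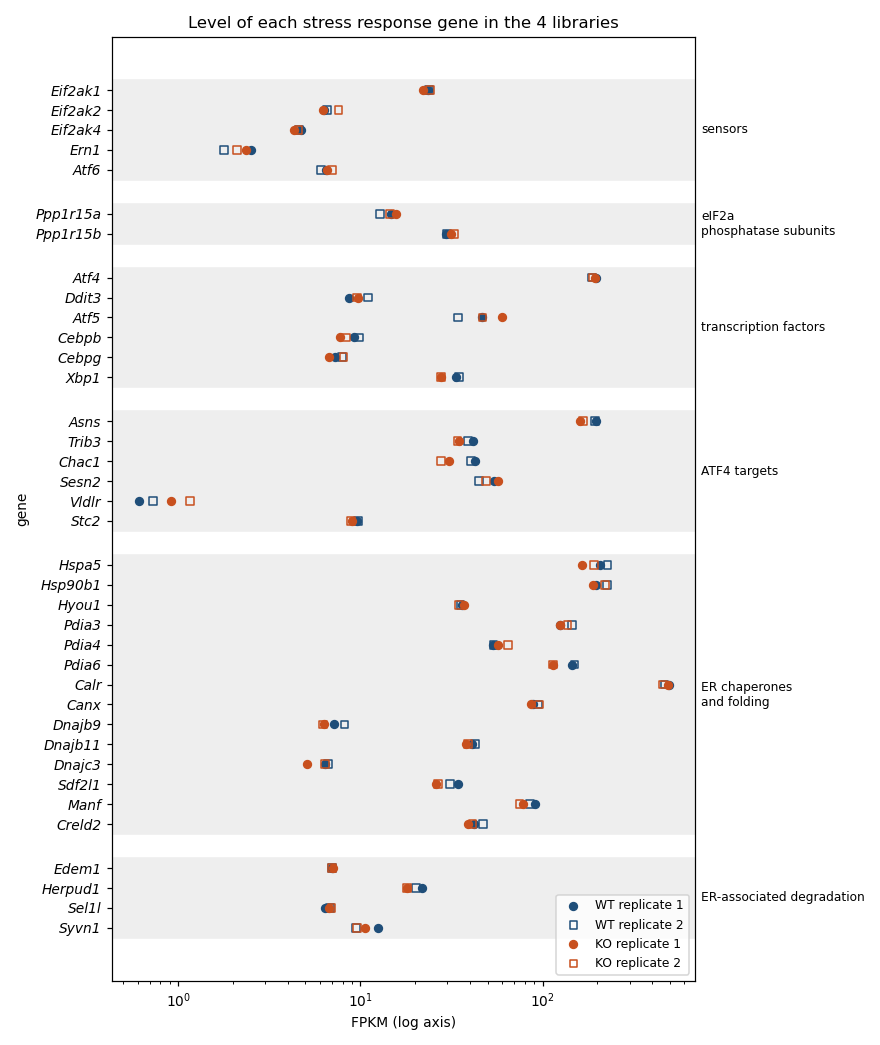
FPKM of each of the 37 genes on a log axis, grouped by role, with 1 point for each of the 2 WT (blue) and 2 KO (orange) libraries. Points of the same gene lie close together compared with the range across genes, from *Vldlr* near 1 FPKM to *Calr* between 459 and 492 FPKM.

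None of the 5 sensor genes passed the test. *Eif2ak1* encodes the haem-regulated eIF2α kinase HRI and had the highest level among the sensors, with 23.6 and 23.7 FPKM in WT and 21.98 and 24.13 FPKM in KO. *Eif2ak2*, which encodes the double-stranded RNA-activated kinase PKR, had 6.29 and 6.59 FPKM in WT and 6.27 and 7.60 FPKM in KO. *Eif2ak4*, which encodes GCN2, the sensor of uncharged tRNA, had 4.72 and 4.62 FPKM in WT and 4.30 and 4.58 FPKM in KO. Both KO values of *Eif2ak4* lay below both WT values, by an amount whose interval included 0 (log2 fold change -0.07, 95% interval -0.35 to 0.21, adjusted p = 0.714 from limma). *Ern1*, the gene for IRE1α, was the lowest sensor, with 2.52 and 1.79 FPKM in WT and 2.354 and 2.097 FPKM in KO. *Atf6* had 6.45 and 6.08 FPKM in WT and 6.54 and 6.99 FPKM in KO, with a log2 fold change of 0.11 (95% interval -0.15 to 0.37). The levels of *Eif2ak2* and *Atf6* did not differ beyond their spread, while *Ern1* and *Eif2ak4* lay apart from them and from each other in all 4 libraries. The intervals quoted for single genes are not adjusted for the number of genes.

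The genes for the regulatory subunits of the eIF2α phosphatase did not pass either. *Ppp1r15a*, the stress-inducible subunit GADD34, had 14.8 and 12.8 FPKM in WT and 15.7 and 14.6 FPKM in KO. *Ppp1r15b*, the constitutive subunit CReP, had 29.55 and 29.97 FPKM in WT and 31.6 and 32.7 FPKM in KO, with a log2 fold change of 0.11 (95% interval -0.07 to 0.29, adjusted p = 0.381 from limma).

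Among the transcription factor genes, *Atf4* itself was level between the genotypes. Its mRNA was abundant, with 197 and 186 FPKM in WT and 195 and 188 FPKM in KO, and its log2 fold change was 0.00 with a standard error of 0.07 (95% interval -0.18 to 0.18, adjusted p = 1.00 from limma). *Ddit3*, which encodes the pro-apoptotic factor CHOP, had 8.72 and 11.03 FPKM in WT and 9.69 and 9.58 FPKM in KO, with both KO values inside the WT range. The files give *Ddit3* the same coordinates as its neighbour *Mars*, whose level was higher at 108 FPKM in WT and 101 FPKM in KO. *Cebpg*, which encodes a dimer partner of ATF4, also overlapped between the genotypes, with 7.26 and 7.94 FPKM in WT and 6.77 and 8.09 FPKM in KO.

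The other transcription factor genes separated by genotype without passing the test. *Xbp1* came nearest to it, with 33.4 and 34.6 FPKM in WT and 27.6 and 27.6 FPKM in KO. Its log2 fold change was -0.30 (standard error 0.07, 95% interval -0.49 to -0.12, adjusted p = 0.0547 from limma). The feature also spans *Ccdc117*, which had 17.6 ± 0.877 FPKM in WT and 15.5 ± 1.54 FPKM in KO (SD, n = 2). *Cebpb*, which encodes a basic leucine zipper factor of stress and inflammation, had 9.21 and 9.84 FPKM in WT and 7.77 and 8.32 FPKM in KO (adjusted p = 0.174). *Atf5*, whose product is like ATF4 controlled at translation and linked to mitochondrial stress, had 46.5 and 34.4 FPKM in WT and 59.6 and 46.8 FPKM in KO. The 2 values of *Atf5* within each genotype differed by about as much as the genotypes did, and its log2 fold change of 0.40 had a 95% interval of -0.04 to 0.84 (adjusted p = 0.197 from limma). The estimate stayed above 0 whichever library was left out, but its size and the call depended on that library. The log2 fold change of *Atf5* was 0.62 without WT replicate 1 (adjusted p = 0.00202 from limma) and 0.58 without KO replicate 2 (adjusted p = 0.0496), but 0.19 without WT replicate 2 (adjusted p = 0.485) and 0.23 without KO replicate 1 (adjusted p = 0.467). With a library left out, one genotype has a single library, and the spread comes from the other genotype alone, so the lone library is assumed to vary like it.

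Of the 6 ATF4 target genes, *Chac1* passed and the others did not. *Chac1* (ENSMUSG00000027313.3, plus strand of chromosome 2 from 119351242 to 119354327, GRCm38) encodes an enzyme that degrades glutathione and is among the sensitive reporters of ATF4 activity. It had 42.6 and 40.6 FPKM in WT and 30.5 and 27.7 FPKM in KO. Both KO libraries lay well below both WT libraries, with means of 41.6 ± 1.43 and 29.1 ± 2.02 FPKM (SD, n = 2). The log2 fold change was -0.51 (standard error 0.09, 95% interval -0.72 to -0.30, adjusted p = 0.0189 from limma), and the adjusted p was 0.0583 when limma's variance trend was left out.

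*Asns*, *Trib3* and *Stc2* did not pass, with all KO values below all WT values. *Asns*, which encodes asparagine synthetase, had 196 and 194 FPKM in WT and 161 and 167 FPKM in KO (log2 fold change -0.25, 95% interval -0.42 to -0.08, adjusted p = 0.0737 from limma). *Trib3*, which encodes a pseudokinase that restrains ATF4 and AKT, had 41.6 and 39.0 FPKM in WT and 34.9 and 34.2 FPKM in KO (log2 fold change -0.22, adjusted p = 0.126 from limma). *Stc2*, for the secreted glycoprotein stanniocalcin-2, had 9.58 and 9.75 FPKM in WT and 8.98 and 8.87 FPKM in KO. *Sesn2*, for a leucine-binding inhibitor of mTORC1, overlapped between the genotypes, with 53.9 and 44.7 FPKM in WT and 56.9 and 49.0 FPKM in KO. *Vldlr*, whose values are given above, was higher in both KO libraries, but at these low levels its interval was the widest of all members (log2 fold change 0.57, 95% interval -0.05 to 1.181, adjusted p = 0.195 from limma). Of the genes in which the C/EBP-ATF element was found, *Asns*, *Chac1*, *Trib3* and *Herpud1* thus had log2 fold changes below 0. That of *Vldlr* lay above 0, with an interval that included 0.

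**Figure D2:**
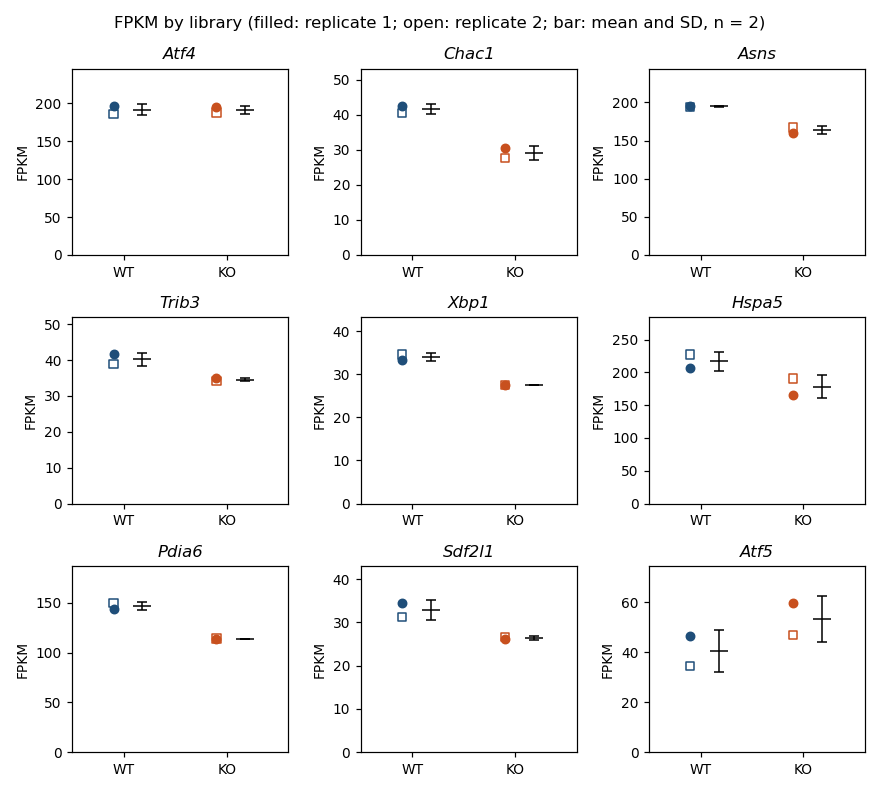
FPKM of 9 of the genes in each library on linear axes that start at 0, with filled symbols for replicate 1, open symbols for replicate 2, and the mean with its SD (n = 2) beside them. *Atf4* is level at 186 to 197 FPKM, *Chac1* and *Pdia6* are lower in both KO libraries, and the *Atf5* libraries differ within each genotype.

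Among the 14 genes of ER chaperones and folding, *Pdia6* passed the test. *Pdia6* (ENSMUSG00000020571.12, plus strand of chromosome 12, from 17266595 to 17324730 in the files) encodes a protein disulfide isomerase of the ER. It had 144 and 150 FPKM in WT and 114 and 114 FPKM in KO. The KO libraries were alike and both lay below the WT libraries, with means of 147 ± 4.07 and 114 ± 0.112 FPKM (SD, n = 2). The log2 fold change was -0.36 (standard error 0.07, 95% interval -0.54 to -0.19, adjusted p = 0.0267 from limma). The call was lost without KO replicate 1, KO replicate 2 or WT replicate 2 (adjusted p of 0.0802, 0.0766 and 0.0917 from limma), where the log2 fold changes were -0.36, -0.37 and -0.34 and the spread again came from the genotype with both libraries. Under quantile normalization the log2 fold change was -0.28 (adjusted p = 0.0509). The annotated gene ends at 17284770, and the longer feature of the files spans *Atp6v1c2*, which had at most 0.111 FPKM in any library.

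The chaperone genes *Hspa5*, *Hsp90b1*, *Calr*, *Canx*, *Pdia3* and *Hyou1* did not pass. *Hspa5* encodes BiP, the central ER chaperone that also holds the sensors inactive, and its mRNA is a standard readout of ER stress. It had 206 and 227 FPKM in WT and 166 and 191 FPKM in KO. Replicate 2 was the higher library in both genotypes, and the highest KO value lay below the lowest WT value (log2 fold change -0.29, standard error 0.10, 95% interval -0.53 to -0.04, adjusted p = 0.123 from limma). *Hsp90b1*, which encodes the ER-resident HSP90 paralog, had 197 and 225 FPKM in WT and 189 and 221 FPKM in KO, so that the genotypes overlapped. The same held for *Calr*, for *Canx*, which encodes the membrane-bound lectin chaperone calnexin (89.0 and 94.4 FPKM in WT, 86.2 and 95.8 FPKM in KO), and for *Pdia3*, which encodes the isomerase that works with them (125 and 145 FPKM in WT, 124 and 137 FPKM in KO). *Hyou1*, an HSP70-type exchange factor for BiP, had 35.9 and 35.5 FPKM in WT and 37.2 and 34.9 FPKM in KO. For *Calr*, *Canx* and *Hyou1* the 95% intervals of the log2 fold change lay between -0.22 and 0.20.

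None of the BiP co-chaperones and smaller luminal factors passed, though most log2 fold changes were below 0. *Sdf2l1*, a partner of the ER HSP70 system, had 34.5 and 31.2 FPKM in WT and 26.1 and 26.7 FPKM in KO (log2 fold change -0.31, 95% interval -0.52 to -0.10, adjusted p = 0.0705 from limma). *Dnajb9*, for a co-chaperone induced through IRE1α, had 7.19 and 8.20 FPKM in WT and 6.34 and 6.22 FPKM in KO (adjusted p = 0.157). *Manf*, for a secreted ER stress-inducible protein, had 90.5 and 85.3 FPKM in WT and 78.0 and 74.7 FPKM in KO (adjusted p = 0.138), in a feature that the files name jointly with *Rbm15b*. In each of these genes the groups did not overlap. *Creld2*, *Dnajb11* and *Dnajc3* had log2 fold changes of -0.15, -0.12 and -0.18, with intervals that included 0. The groups did not overlap in *Creld2* and *Dnajb11* either, while those of *Dnajc3* did. *Pdia4*, another disulfide isomerase, had a log2 fold change above 0, with 53.6 and 53.9 FPKM in WT and 57.3 and 64.5 FPKM in KO (log2 fold change 0.18, 95% interval -0.03 to 0.39, adjusted p = 0.229 from limma). The 8 genes with the printed ER stress response element had log2 fold changes from -0.36 in *Pdia6* to -0.01 in *Canx*, and *Pdia6* was the one that passed. Over all tested features 53.2% lay below 0. With each library scaled to the same sum over features with a symbol, *Hsp90b1*, *Calr* and *Canx* lay above 0, at 0.03, 0.05 and 0.06. *Hspa5*, *Dnajc3* and *Creld2* stayed below it, at -0.21, -0.11 and -0.08.

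No gene of ER-associated degradation passed. *Herpud1*, which organises the ubiquitin ligase complex at the ER membrane and carries both a C/EBP-ATF element and the second ER element, had 21.9 and 20.3 FPKM in WT and 17.97 and 18.03 FPKM in KO (log2 fold change -0.23, 95% interval -0.43 to -0.02, adjusted p = 0.143 from limma). *Edem1*, for a lectin that extracts misfolded glycoproteins, had 7.002 and 6.993 FPKM in WT and 7.05 and 6.97 FPKM in KO. *Sel1l*, for the scaffold of the ligase complex, had 6.41 and 6.82 FPKM in WT and 6.75 and 6.96 FPKM in KO. *Syvn1*, for the ligase HRD1 itself, had 12.5 and 9.46 FPKM in WT and 10.7 and 9.57 FPKM in KO. The last 3 overlapped between the genotypes.

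The medians of the role groups are given side by side without a test. The median log2 fold change was -0.17 for the 6 ATF4 targets, -0.14 for the 14 genes of ER chaperones and folding, -0.05 for the 4 genes of ER-associated degradation, -0.03 for the 6 transcription factors, 0.06 for the 5 sensors and 0.12 for the 2 phosphatase subunits. It was -0.04 for all 37 members and -0.02 for all 12990 tested features, and -0.05 for the 6145 tested features with a mean of at least 10 FPKM. When each library was scaled to the same sum over features with a symbol, the median of the members was 0.03 and that of all features 0.05, and the medians of the transcription factors (0.0422) and of ER-associated degradation (0.0195) also turned above 0. In 15 members both KO libraries lay below both WT libraries, 40.5% of them, against 31.7% of all tested features. In 5 members both lay above, 13.5%, against 27.0% of features. The log2 fold change was below 0 in 24 members, 64.9%, against 53.2% of features. With the equal-sum scaling the log2 fold change was below 0 in 16 members and in 42.7% of all features. The 95% interval lay within a 2-fold change for 36 of the 37 members, the exception being *Vldlr*, and its median half-width was 0.24 on the log2 scale.

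**Figure D3:**
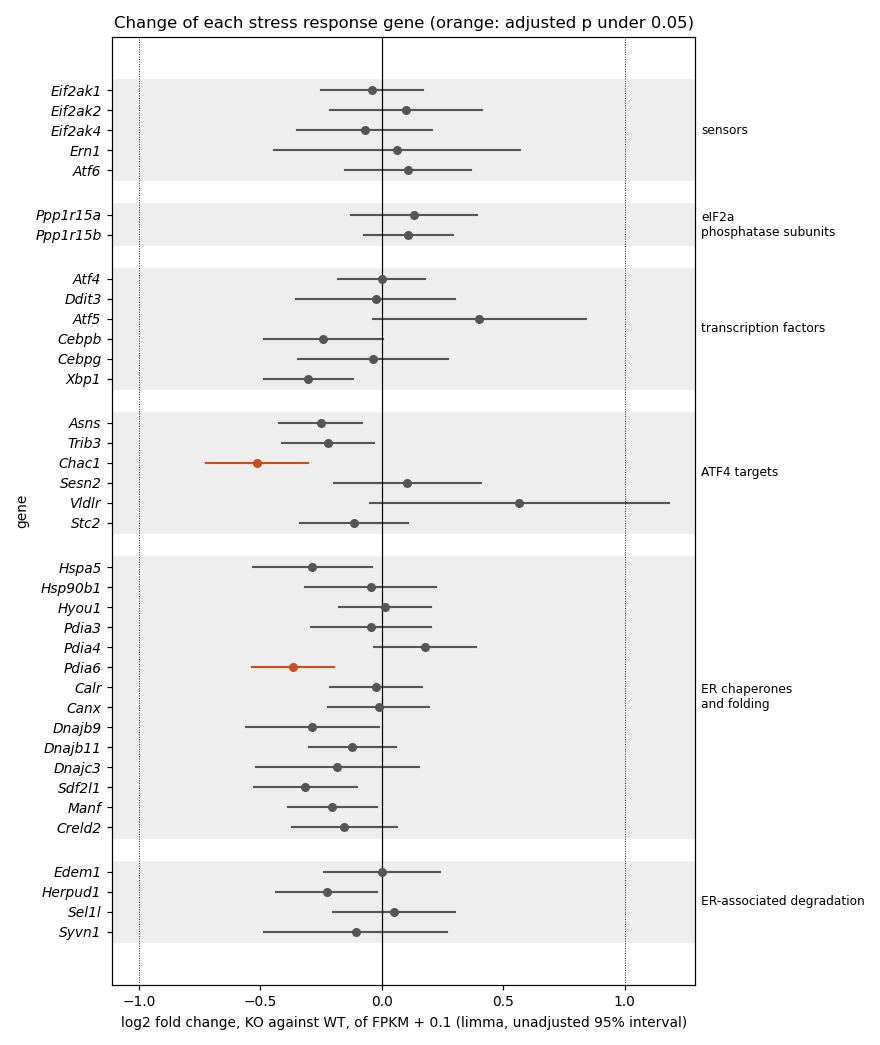
Log2 fold change of KO against WT for each of the 37 genes (points) with its unadjusted 95% interval from limma (bars), grouped by role. *Chac1* at -0.51 and *Pdia6* at -0.36 are the genes with an adjusted p under 0.05 (orange), no other gene passed, and the dotted lines mark a 2-fold change.

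*Eif2ak3*, kept apart from the members, was higher in KO. It had 3.49 and 3.06 FPKM in WT and 6.82 and 6.52 FPKM in KO (log2 fold change 1.008, standard error 0.12, adjusted p = 0.00849 from limma). The stretch of chromosome 6 was set to run from the start of *Eif2ak3* to the end of *Gata2*, from 70844522 to 88207032. Where the raised region begins and ends was not examined. Of the 102 tested features with a symbol there, *Eif2ak3* included, 78 were higher in KO and none lower, with a median log2 fold change of 0.88. None of the 37 members lies in that stretch.

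The wider pathway was read in lists written by symbol. Of 116 listed genes found in the files, 114 were tested, and 16 passed, 5 higher and 11 lower in KO. This share of 14.0% was near the 12.5% of all tested features, but the directions differed. Over all features 6.85% were higher and 5.6% lower in KO, while most of the 16 were lower. That difference was not tested. The median log2 fold change was -0.10 over the 114 genes, with 78 below 0 and 36 above. By list it was -0.24 for ATF4 amino acid supply, -0.17 for eIF2 and eIF2B subunits and -0.15 for ER translocation and signal peptidase. It was -0.10 for aminoacyl-tRNA synthetases and -0.08 for other ER folding and degradation. Other stress-induced genes had -0.02, and ATF6 processing and relatives 0.01. Both lists of cytosolic and mitochondrial chaperones had -0.03. These medians are shown in the plot of the other pathway genes. In the ATF4 programme of amino acid supply, 5 of 17 tested genes passed, 3 higher and 2 lower. *Mthfd2*, for a mitochondrial folate enzyme, had 60.5 and 61.9 FPKM in WT and 99.8 and 107 FPKM in KO (log2 fold change 0.76, adjusted p = 0.00554 from limma), and it is the one listed gene within the raised stretch of chromosome 6. *Got1*, for cytosolic aspartate aminotransferase, had 117 and 110 FPKM in WT and 166 and 156 FPKM in KO (log2 fold change 0.50, adjusted p = 0.0147). The other 3, named after their values were seen, were *Gpt2* (log2 fold change 0.44), for mitochondrial alanine aminotransferase, *Psat1* (-0.38), for a serine synthesis enzyme, and *Slc7a1* (-0.42), for a cationic amino acid transporter. Their adjusted p were 0.0216, 0.0236 and 0.0366 from limma. The genes of this ATF4 list thus passed in both directions, while 12 of the 17 log2 fold changes were below 0 and 5 above. In 10 of the 17 (58.8%) both KO libraries lay below both WT libraries, against 31.7% of all tested features. Both lay above in 4 (23.5%), against 27.0% of features. This lean was not tested.

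None of 12 aminoacyl-tRNA synthetase genes and none of 14 genes of ER translocation and signal peptidase passed. The synthetase genes are induced by ATF4 as well, and their log2 fold changes ran from -0.28 to 0.16. Among other stress-induced genes, *Gdf15*, which encodes a secreted stress cytokine, had 30.5 and 31.7 FPKM in WT and 20.6 and 19.0 FPKM in KO (log2 fold change -0.65, adjusted p = 0.00975 from limma). *Jdp2*, for a transcriptional repressor of the AP-1 family, had 8.57 and 7.68 FPKM in WT and 12.4 and 12.1 FPKM in KO (log2 fold change 0.59, adjusted p = 0.0203). *Atf3* and *Nupr1*, both classical targets of this response, were among the 9 tested genes of that list that did not pass.

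Among the 22 other genes of ER folding and degradation, 2 passed, both lower, a share of 9.09% against 12.5% of all tested features and 5.6% for those lower in KO. *Txndc5*, for an ER thioredoxin-like isomerase, had 38.1 and 35.7 FPKM in WT and 28.7 and 25.6 FPKM in KO (log2 fold change -0.44, adjusted p = 0.0347 from limma). *P4hb*, for protein disulfide isomerase, had 138 and 145 FPKM in WT and 109 and 114 FPKM in KO (log2 fold change -0.34, adjusted p = 0.0364). The KO values of both genes lay below their WT values. Other genes of this kind did not pass, among them *Pdia5* (log2 fold change -0.08) and *Txndc11* (-0.09), named after their values were seen, and the members *Pdia3* and *Pdia4* described above. *Creb3l1*, for a membrane-bound relative of ATF6, was the 1 gene of 8 that passed among ATF6 processing genes and relatives, with 6.24 and 4.58 FPKM in WT and 3.24 and 2.96 FPKM in KO (log2 fold change -0.77, adjusted p = 0.0441).

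For the eIF2 and eIF2B subunits and regulators of GCN2, 3 of 10 genes passed, 1 higher and 2 lower in KO, where 12.5% of all tested features passed. *Impact*, for an inhibitor of GCN2, had 26.4 and 29.3 FPKM in WT and 41.0 and 44.5 FPKM in KO (log2 fold change 0.62, adjusted p = 0.0141 from limma). *Eif2s3x*, for the γ subunit of eIF2, had 166 and 172 FPKM in WT and 131 and 133 FPKM in KO (log2 fold change -0.35, adjusted p = 0.0300). Its paralog on chromosome Y, *Eif2s3y*, had 1.403 and 2.041 FPKM in WT and 44.6 and 53.1 FPKM in KO (log2 fold change 4.76, adjusted p = 0.00115 from limma). The pair summed to 167 and 174 FPKM in WT and 176 and 187 FPKM in KO. The summed level was thus not lower in KO, and how reads were shared between the paralogs is uncertain. The cause of the *Eif2s3y* difference, and its part in the other differences between the lines, was not tested. *Eif2b1*, named after its values were seen, had a log2 fold change of -0.32 (adjusted p = 0.0458).

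**Figure D4:**
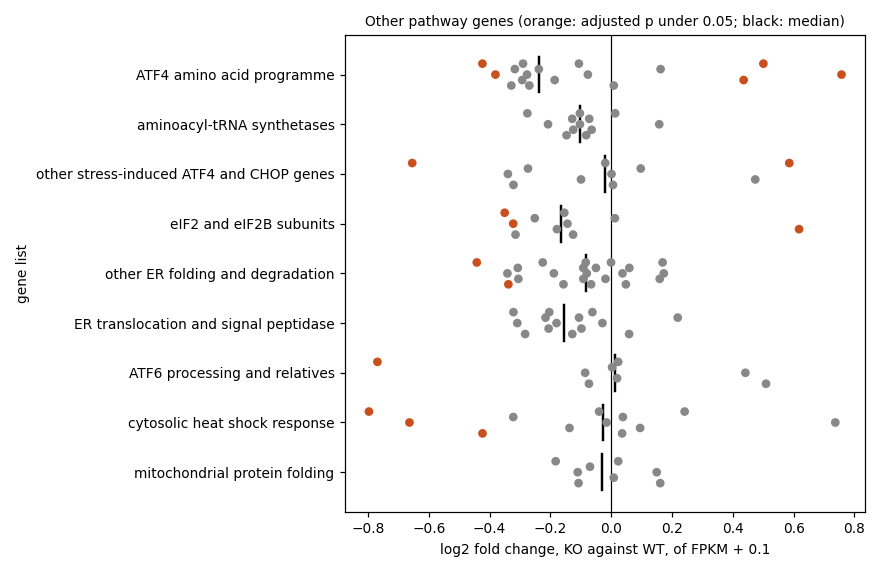
Log2 fold change of KO against WT for 114 other pathway genes (points) in 9 lists, with the median of each list as a black bar. Orange points passed at an adjusted p under 0.05, 5 of them to the right of 0 and 11 to the left.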

How the data were processed

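RNA from WT and *Bmal1* KO ESCs (2 libraries each, grouped by their labels) was aligned by the authors to GRCm38 with TopHat2 2.1.1 and Bowtie2 2.3.0, and the deposited FPKM per feature were estimated with Cufflinks 2.2.1. Depth is unknown, so precision comes from the spread between replicates. Starts in the files count from 0 and were raised by 1. From these values, log2(FPKM + 0.1) was compared with limma 3.58.1 (R 4.3.3, variance trend, two-sided, Benjamini-Hochberg adjustment) for features with a mean of at least 0.5 FPKM, after a check on simulated data. Python 3.11.15 with pandas 2.3.3 was used for the rest. The members and lists were chosen with earlier results of these data known. Genes named are all members, at most the 2 largest passing changes of each other list, *Arntl* and *Eif2ak3*. Cell markers, genes that share a feature with a member, and every other gene named (such as *Atf3*, *Nupr1*, *Eif2s3y*, *Hspa1a*, *Hspa4l*, *Hsp90aa1* and *Hsp90ab1*) stand outside this rule and were named after their values were seen. Gene identifiers come from GENCODE and promoter sequences from RefSeq (GRCm38.p6). Alternatives covered the pseudocount, the filter, scaling, the variance trend, a replicate block, summing by symbol, and leaving out each library.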

Additional observations from a re-analysis of the deposited data

How the results depend on the processing

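Pseudocounts of 1 and 0.01, a mean FPKM of at least 1, no filter, median-of-ratios scaling and FPKM summed by symbol kept the member counts at 0 higher and 2 lower, and no setting brought a member past 2-fold. The members passing lower numbered 1 under quantile normalization and under equal sums over features with a symbol, and 0 without the variance trend. Leaving out each library gave 0 to 1 members higher, 1 to 2 lower, and 5 to 6 higher and 4 to 8 lower of the other pathway genes. Those other genes were 3 higher and 3 lower without the trend, 4 lower with equal sums and with no filter, and 7 lower under quantile normalization. With equal sums the calls over all features were 67.6% higher in KO instead of 55.0%, and the median log2 fold change was -0.0939 for ATF4 targets, 0.0195 for ER-associated degradation, 0.0422 for transcription factors, -0.0639 for ER chaperones and folding, 0.03 for all members, 0.19 for phosphatase subunits and 0.13 for sensors, where that scaling moved the median of all features by 0.07. Without each library in turn, the medians ran from -0.14 to 0.0047 for ER-associated degradation (above 0 without WT replicate 1), from -0.036 to 0.0668 for sensors (-0.036 without KO replicate 2, -0.0337 without WT replicate 2) and from -0.15 to -0.0053 for transcription factors. Over all features, 571 were higher and 380 lower with no filter and 457 lower without the trend. Past 2-fold, 146 were higher and 85 lower with a pseudocount of 1, and 257 to 323 were lower without each library; the cause was not tested.

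Nothing in the labels says that equal replicate numbers mark a shared batch or day. The differences between replicates 1 and 2 in WT and KO gave Pearson and Spearman coefficients of 0.07 and 0.39 across 12990 features, which do not vary independently, and the difference between the replicates had the same sign in both genotypes for 29 of 37 members. With 2 pairs this is a hint from the data and does not show a pairing. With the replicate block, 1807 features were higher (13.9%) and 2245 lower (17.3%), 31.2% of those tested. Then 12 members passed, 32.4% of them: *Atf5* higher, and 11 lower (*Chac1*, *Pdia6*, *Xbp1*, *Asns*, *Trib3*, *Hspa5*, *Sdf2l1*, *Manf*, *Herpud1*, *Creld2* and *Cebpb*). The 11 lower members were a larger share of the 37 than the 17.3% of all features. The 1 higher member was a smaller share than the 13.9% of all features. This difference was not tested. Of the 114 other pathway genes tested, 12 were higher and 37 lower with the block. Here too the lower share was above the 17.3% of all features, and the higher share was below the 13.9%. With no read numbers, values near 0 FPKM such as those of *Vldlr* have unknown counting error.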

Other observations

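The chaperones of the cytosol and of mitochondria were read beside those of the ER. In the cytosolic heat shock list 3 of 12 tested genes passed, each lower in KO, where 12.5% of all tested features passed and 5.6% were lower. Estimates in the list lay on both sides of 0, and *Hspa4l* had a log2 fold change of 0.74 (adjusted p = 0.169 from limma) and *Hsp90aa1* of 0.24 (adjusted p = 0.219), with both KO libraries above both WT libraries, and neither passed. *Bag3*, for a co-chaperone of selective autophagy, had 15.4 and 13.6 FPKM in WT and 8.73 and 7.90 FPKM in KO (log2 fold change -0.80, standard error 0.11, adjusted p = 0.0112 from limma). *Hspa1b*, for inducible HSP70, had 4.10 and 4.07 FPKM in WT and 2.43 and 2.66 FPKM in KO (log2 fold change -0.66, adjusted p = 0.0284), and reads may be shared with its near-identical neighbour *Hspa1a*, which had a log2 fold change of 0.10. *Hsph1*, named after its values were seen, had a log2 fold change of -0.42 (adjusted p = 0.0352). *Hspa8* (log2 fold change -0.32, adjusted p = 0.0627 from limma) and *Hsp90ab1* (-0.14) did not pass, and in each both KO libraries lay below both WT libraries. None of 8 mitochondrial folding genes passed, with log2 fold changes from -0.18 to 0.16. The median log2 fold change was -0.03 in both lists.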
